A study of Mus musculus with 5 samples.

Results

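The cytosolic ribosomal protein (RP) genes were followed through 5 mouse single-cell RNA libraries, in sarcoma cells, in stroma of the sarcomas and in resting muscle. Members were taken by symbol, as Rpl or Rps followed by a number, together with Rplp0, Rplp1, Rplp2 and Rpsa, and had to reach 10 CPM in at least 1 library, where CPM is the count of a gene's unique molecular identifiers (UMIs) scaled to a library total of 1e6. Of 28001 counted features, 77 had such a symbol and all 77 reached that level, 46 of them proteins of the large subunit and 31 of the small subunit. The threshold was far from deciding: Rpl29, the member with the lowest maximum over libraries, reached 703 CPM in its highest library.

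Ribosomes are built from ribosomal RNA and protein, in a small and a large subunit, and each protein is usually present as 1 copy. The genes lie apart in the genome, and their messenger RNAs commonly begin with a 5′ terminal oligopyrimidine (TOP) tract, through which their translation is tuned by the mTOR pathway and the RNA-binding protein Larp1. Growing cells spend much of their transcription on ribosomes. Some of the proteins also act away from the ribosome, as Rpl5 and Rpl11 do when, bound to 5S ribosomal RNA, they hold the p53 ubiquitin ligase Mdm2.

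All mice were C57BL/6J with a tamoxifen-activated Cre in both copies of Hic1 (Hic1CreERT2/CreERT2), so Cre is driven by a gene of mesenchymal progenitors and both copies of Hic1 carry the insertion in every group. The muscle library held sorted progenitors of quiescent hindlimb muscle with 1 reporter allele (Rosa26LSLtdTomato/+). The 4 sarcoma libraries held sorted cells of epithelioid sarcomas with 2 reporter alleles (Rosa26LSLtdTomato/LSLtdTomato) and floxed Smarcb1 (Smarcb1FL/FL), a subunit gene of the SWI/SNF chromatin remodeller. Labelled sites were Shoulder for sarcoma 1, Head for sarcoma 2, Head/ear for sarcoma 3 and Hip for sarcoma 4. Tamoxifen (2.5 mg in 100 µL oil) was given daily for 5 days from an age of 8 weeks, then washed out for 10 days. Smarcb1 genotype, the number of reporter alleles, anatomical site and being a tumour all differ between muscle and sarcoma and cannot be told apart. The sarcomas are labelled endpoint. No time of harvest after the washout was used here, so age at harvest may differ between the groups as well. The labels do not say whether the sarcomas are from separate animals.

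The libraries held 64061069 UMIs in muscle and 151903246 to 213271163 in the sarcomas, and 37519 of 39930 barcodes were kept (at least 500 genes and at most 10% mitochondrial UMIs). The barcodes left out were poor in RP transcripts, with median shares of 2.89% to 3.99%. Any 2 libraries had at most 22 barcodes in common. Stroma was defined by 4 or more UMIs summed over Ddah1, Wisp1, C1qtnf7 and Fbn2. This gave 224, 180, 1795 and 170 cells in sarcomas 1 to 4. The other kept cells of those libraries were counted as sarcoma cells. The cut is a raw count, so a shallow stroma cell can fall among the sarcoma cells. Mural cells were not set apart either: 6 of their markers summed to 123, 90.9, 265 and 15.0 CPM in sarcoma cells 1 to 4. Smarcb1, the floxed gene, had a level of 88.7 CPM in muscle, of 1.53, 1.72, 6.40 and 0.355 in sarcoma cells 1 to 4, and of 33.3, 57.1, 56.5 and 3.96 in their stroma. In sarcoma 4 the markers went only part of the way with the name stroma. Of 6 progenitor markers all but Gsn were higher there than in its sarcoma cells, as with Dcn at 174 and 28.2 CPM and Pi16 at 30.8 and 2.27, but each of the 6 was lower than in the stroma of any other sarcoma, and Smarcb1 was low. Gsn stood at 304 and 490, and was also lower in stroma than in sarcoma cells in sarcomas 2 and 3. Mycn, far higher in sarcoma 4 than in the other sarcomas, stood at 60.2 in the stroma and 78.0 in the sarcoma cells. Stroma shares, counts of members higher or lower in every library and edgeR's counts of genes called are therefore given with and without sarcoma 4. The fitted log2 differences of members, the DESeq2 calls and the gene lists that use stroma include sarcoma 4.

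Sequence near the start sites of members that lay farthest above or below muscle is shown first, because a tract at the start is the feature these genes are known for. A tract was counted as a C followed by 7 or more pyrimidines, C or T, on the gene's strand, starting within 40 bases of a RefSeq start site. It was found for 32 of the 57 members that have a RefSeq start in the table (56.1%), against 5929 of 27025 genes in the same window (21.9%). Each window holds 30 bases of build GRCm38.p6 from RefSeq, written 5′ to 3′ on the gene's strand with the tract in capitals. The first 4 genes had the highest fold differences to muscle among members with a window that can be shown, and the last pair, Rpl15 and Rps27, the lowest.
Rpl5 (chr5:107900500-107900529, plus strand): tacagccaCTCTTTCTCacgtcgcttgcgt
Rpl13a (chr7:45128722-45128751, minus strand): cgacaagaCCTCCTCCTTTCCCaggcggct
Rps15 (chr10:80292448-80292477, plus strand): agcccgtaCTTCCTTTTCCgagtaaccgcc
Rps25 (chr9:44407684-44407713, plus strand): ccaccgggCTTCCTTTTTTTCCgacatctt
Rpl15 (chr14:18270969-18270998, minus strand): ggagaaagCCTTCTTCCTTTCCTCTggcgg
Rps27 (chr3:90213629-90213658, minus strand): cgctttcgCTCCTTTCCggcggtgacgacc
A window was made only for members with a tract, so its presence in the genes shown was fixed by that choice. The tract was 9 bases long in Rpl5, 14 in Rpl13a, 11 in Rps15 and 14 in Rps25. It was 17 in Rpl15 and 9 in Rps27. Of other members near the lower end, Rpl13 and Rpl35a had tracts of 10 and 13 bases. Rpl9 and Rpl27 had none, with a longest run of 4 bases each. Counted from the RefSeq start, the tract began at -20 in Rpl5, 2 in Rpl13a, 25 in Rps15, -22 in Rps25, -4 in Rpl15 and -2 in Rps27. The windows of Rps15 and Rps25 therefore do not hold the RefSeq start itself, and in Rpl5 and Rps25 the tract ends before it. A match of letters is a description of the window and was not tested as a site. In the mouse annotation the 77 members were spread over 19 chromosomes, with 14 on chromosome 7 and 4 on chromosome X.

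Over all kept cells, without regard to depth, RP transcripts made up a larger part of the RNA in sarcoma cells of every sarcoma than in muscle. The median share of a cell's UMIs was 10.9% in the 8107 muscle cells. In sarcoma cells it was 19.0% in sarcoma 1 (7209 cells), 23.3% in sarcoma 2 (8026 cells), 13.1% in sarcoma 3 (5154 cells) and 12.9% in sarcoma 4 (6654 cells). All 4 sarcomas lay above muscle, but sarcomas 1 and 2 stood well apart from 3 and 4, and the mean difference of 6.20 percentage points was little larger than its spread (± 5.00, SD, n = 4). Without sarcoma 2 the difference was 4.14 points. No p-value is given for the share, which is a sum over genes chosen with earlier results of these data known.

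Stroma lay between muscle and sarcoma cells in each library. Its median share was 15.7% in sarcoma 1, 14.6% in sarcoma 2, 12.6% in sarcoma 3 and 11.6% in sarcoma 4. Sarcoma cells were above the stroma of the same library in 4 of 4 libraries, by 3.49 ± 3.66 points (SD, n = 4), and by 4.20 points without sarcoma 4 and 1.76 without sarcoma 2. Stroma was above muscle in 4 of 4, by 2.70 ± 1.86 points (SD, n = 4), and by 3.37 points without sarcoma 4. The split of the libraries was also seen in stroma, since sarcomas 1 and 2 had the higher values there too. Their own order was reversed, with sarcoma 1 highest in stroma and sarcoma 2 highest in sarcoma cells.

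**Figure D1:**
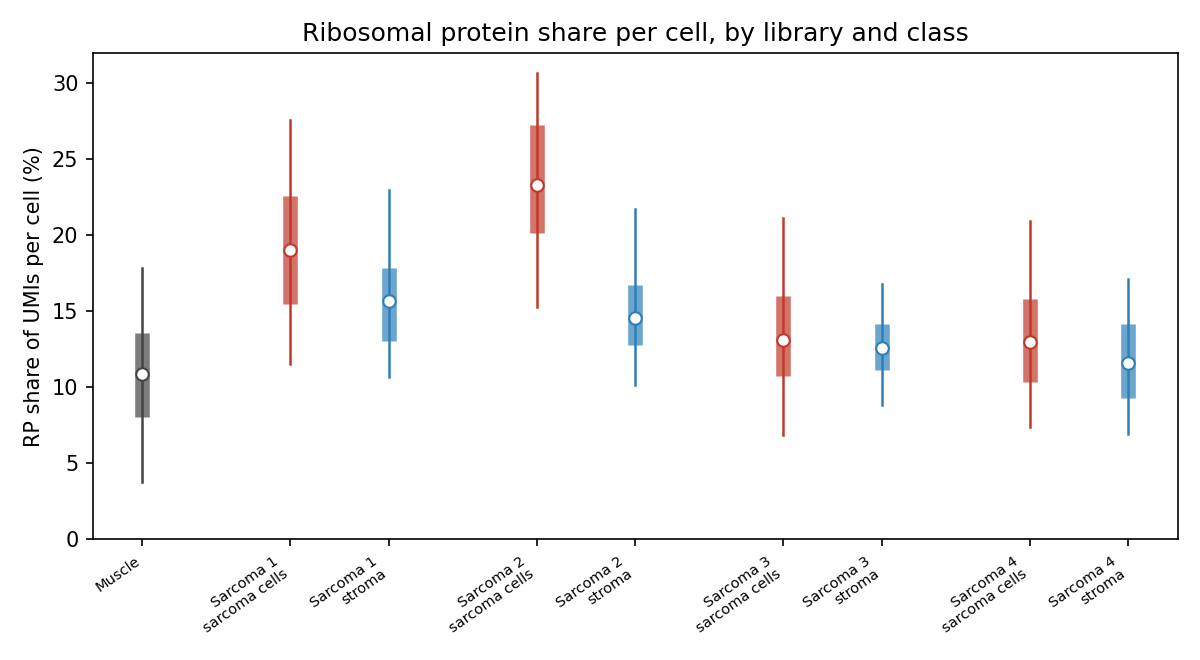
RP share of the UMIs of each cell (%), for muscle (grey), sarcoma cells (red) and stroma (blue) of each library; circles are medians over cells, thick bars run from the 25th to the 75th percentile and thin lines from the 5th to the 95th. Medians run from 10.9% in muscle to 23.3% in sarcoma cells of sarcoma 2, and the distributions of single cells overlap.

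Depth moved with the share. Muscle cells had a median of 7566 UMIs, and sarcoma cells 24028, 24800, 19109 and 28431 in sarcomas 1 to 4. Stroma of the same libraries had 22461, 27491, 21645 and 39479. With cells of a library split by depth into 4 equal bins, from the shallowest to the deepest bin of muscle cells the median RP share went from 6.79% (median 3059 UMIs) to 12.1% (12242 UMIs). In sarcoma 3 it went from 11.1% to 15.1% and in sarcoma 1 from 17.3% to 20.7%, whereas in sarcoma 4 the bins stayed between 12.3% and 13.4%. Sarcoma 2 ran the other way at the shallow end, with 27.4% in a shallowest bin with a median of only 4811 UMIs and 21.8% to 23.3% in the others. At similar depth sarcoma 3 could lie below muscle. Its shallowest bin (median 8474 UMIs) had 11.1%, against 11.9% in bin 3 of muscle (8924 UMIs). The shallowest bin of sarcoma 4 (8823 UMIs) had 13.2%.

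Within a common band of 5000 to 20000 UMIs per cell, muscle had a median share of 11.8%. Sarcomas 1 and 2 stood at 17.5% and 23.1%, sarcoma 3 at 12.2% and sarcoma 4 at 12.8%, so that all 4 lay nearer to muscle than over all cells, and sarcomas 3 and 4 lay close to it. In that band stroma had 15.3% in sarcoma 1 and 14.1% in sarcoma 2, and in sarcoma 3 its 12.6% was above that of the sarcoma cells. The band left 15 stroma cells in sarcoma 4, under the minimum of 20.

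**Figure D2:**
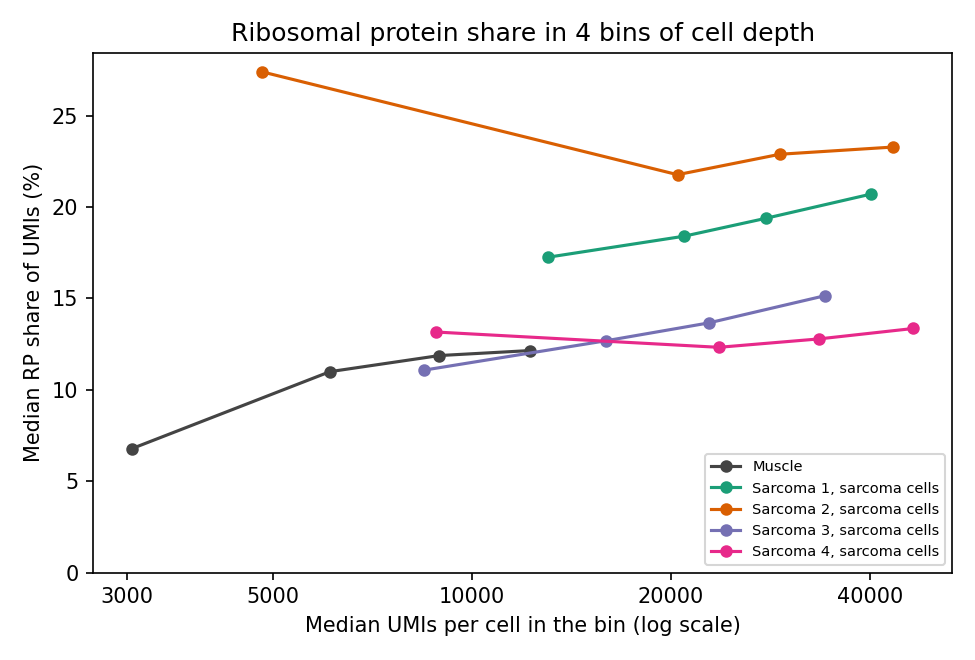
Median RP share of UMIs (%) against the median UMIs per cell (log axis) in 4 equal bins of cells ordered by depth, for muscle and for sarcoma cells of each sarcoma. At similar depth muscle (12.1% in its deepest bin) lies close to sarcomas 3 and 4 and below sarcomas 1 and 2.

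The subunits kept nearly the same balance while the total changed. Large-subunit genes gave 54.2% of RP UMIs in muscle and 52.3%, 53.9%, 52.5% and 54.9% in sarcoma cells 1 to 4. Cells with an RP share of 20% or more made up 1.86% of muscle cells and 42.7%, 75.6%, 7.35% and 6.52% of sarcoma cells. Across cells with at least 10000 UMIs, each gene's share followed that of all other RP genes, with a median Spearman correlation of 0.66 in muscle and 0.81, 0.76, 0.75 and 0.79 in sarcomas 1 to 4. These correlations share the depth of the cells and are a description. Muscle had 2259 such cells, and its deepest bin had a median of 12242 UMIs, against medians of 19109 to 28431 in all sarcoma cells. The values of muscle and sarcomas are therefore not at equal depth, and their difference was not tested. Rpl31, a large-subunit protein, followed the others least in sarcomas 2 and 3, at 0.41 and 0.45.

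Gene by gene, 56 of the 77 members had a higher level in all 4 sarcomas than in muscle (72.7%), against 21.4% of all 18549 genes tested. Only Rpl15 was lower in all 4, against 30.4% of all genes. Without sarcoma 4, 66 members were higher in all 3 remaining sarcomas, against 28.1% of genes, and 1 was lower in all 3, against 35.4%. In summed counts no member passed edgeR's quasi-likelihood test at an adjusted p of 0.05, and neither did any other gene (0% called), with 3 members at an unadjusted p under 0.05 (Rpl5, Rpl13a and Rpl23a, all higher, against 4.3% of genes) and 2086 genes in either direction (11.2%). With 1 muscle library and this spread between sarcomas edgeR's test has little power, so that a 0 or a high adjusted p against muscle does not show that a level did not differ. DESeq2 called 1591 genes (9.63%), of which 2 were members, Rpl5 and Rpl13a, both higher, as were 4.96% of genes. The fitted log2 differences of the members ran from -0.60 to 2.14 with a median of 0.88, beside a median of 0.21 over all genes. With scaling by library size alone these medians were 0.65 and 0.02. The lone muscle library is assumed in this fit to vary like the sarcomas.

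**Figure D3:**
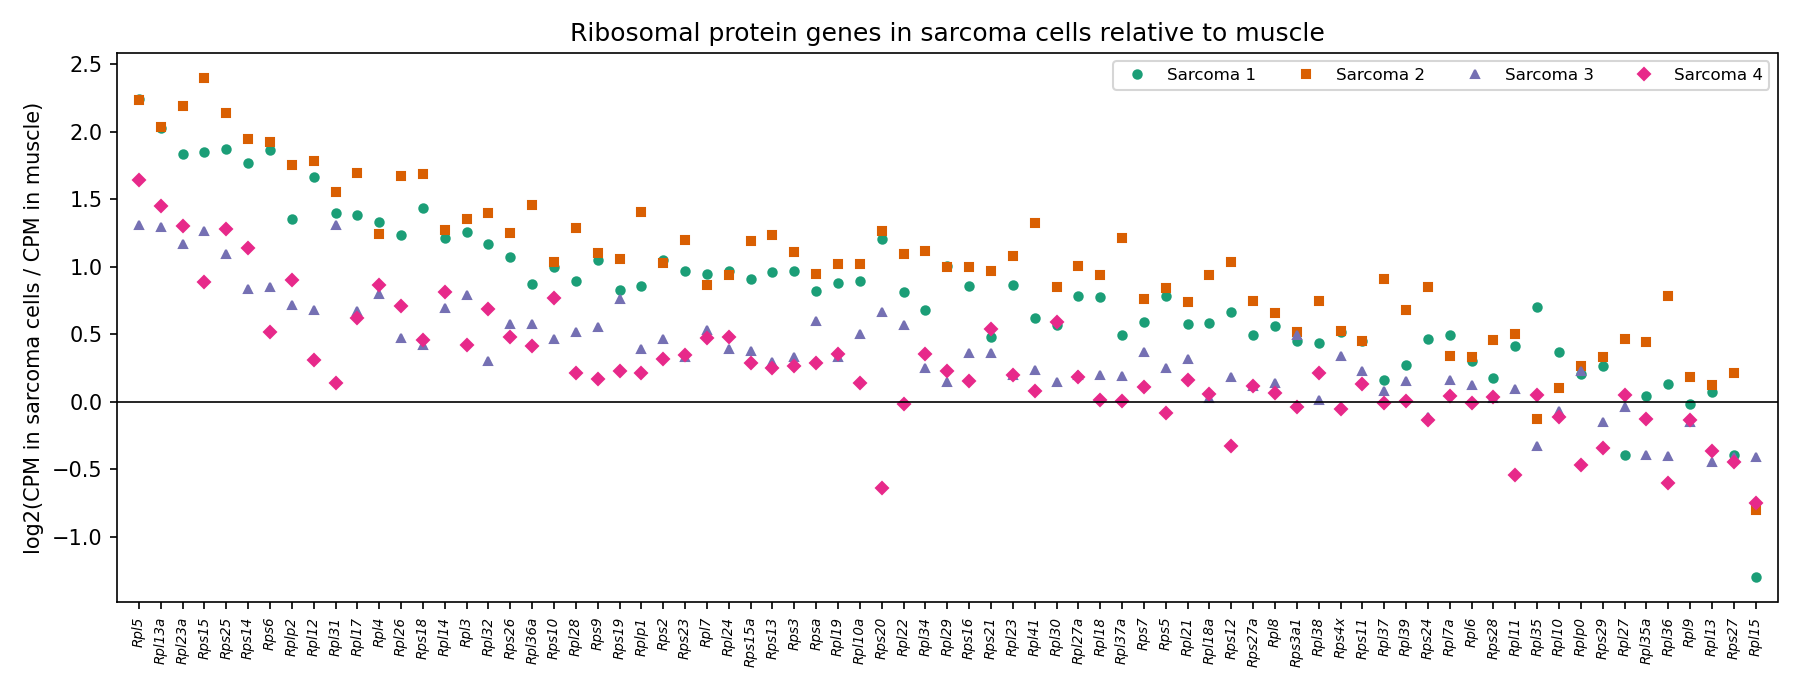
log2 ratio of CPM in sarcoma cells to those in muscle for 75 of the 77 genes, ordered by the mean over sarcomas, with 1 symbol per sarcoma and a line at 0. Rpl5 is at the upper end and Rpl15 at the lower end, and sarcoma 2 is the highest of the 4 for most genes.

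The 6 members at the upper end had 2.81 to 3.75 times the muscle level in the mean of the sarcomas. Rpl5, which carries 5S ribosomal RNA into the large subunit, had a muscle level of 416 CPM and reached 1962, 1952, 1031 and 1297 in sarcoma cells 1 to 4. All 4 sarcomas were well above muscle, with a fitted log2 difference of 2.14 ± 0.75 (SE; edgeR adjusted p = 0.406). Rpl13a, a large-subunit protein that in human cells also joins a complex silencing inflammatory transcripts, had 523 in muscle and 2134, 2146, 1280 and 1432 in the sarcomas. Its log2 difference was 1.96 ± 0.69 (edgeR adjusted p = 0.407). Rps15, a small-subunit protein needed for export of the precursor subunit from the nucleus, had 337 in muscle and 1214, 1776, 812 and 625 in the sarcomas, a log2 difference of 1.94.

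The same separation from muscle held for 3 further genes. Rpl23a, which lies at the exit of the peptide tunnel, had 339 in muscle and 1212, 1545, 762 and 836 in the sarcomas. Rps25, a small-subunit protein used by viral internal ribosome entry sites, had 442 in muscle and 1621, 1942, 947 and 1073. Rps14, whose human counterpart is lost in the 5q- syndrome of the bone marrow, had 1145 in muscle and 3892, 4418, 2040 and 2522. Their log2 differences were 1.91, 1.89 and 1.72, with edgeR adjusted p of 0.44, 0.454 and 0.505. Rpl23a is uncertain, because 83.6% of the 90-base words in its last 400 bases also occur in another counted feature.

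At the lower end, Rpl15 ran against the rest of the family. This large-subunit gene had 950 CPM in muscle and 386, 544, 716 and 566 in sarcoma cells 1 to 4. All 4 sarcomas were below muscle, although the log2 difference of -0.60 ± 0.39 did not pass (edgeR adjusted p = 0.588). It took 0.811% of RP UMIs in muscle and 0.196%, 0.234%, 0.495% and 0.424% in the sarcomas. None of the 90-base words in its last 400 bases occurs in another annotated gene.

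The 5 other members at the lower end were close to muscle and did not keep 1 direction. Rps27, a small-subunit protein with a zinc finger, had 1939 in muscle and 1480, 2247, 1464 and 1426 in the sarcomas, so that only sarcoma 2 was above muscle. Rpl13 had 2179 in muscle and 2296, 2371, 1602 and 1694 in the sarcomas, with sarcomas 1 and 2 above muscle and the others below. Rpl9 stayed within 1661 to 2099 around a muscle level of 1843. Rpl35a ran from 1776 to 3163 around 2327, and Rpl27 from 611 to 1107 around 802. Rps27 and Rpl27 share 70.1% and 90.7% of their 3′ words with another counted feature and are uncertain for that reason.

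**Figure D4:**
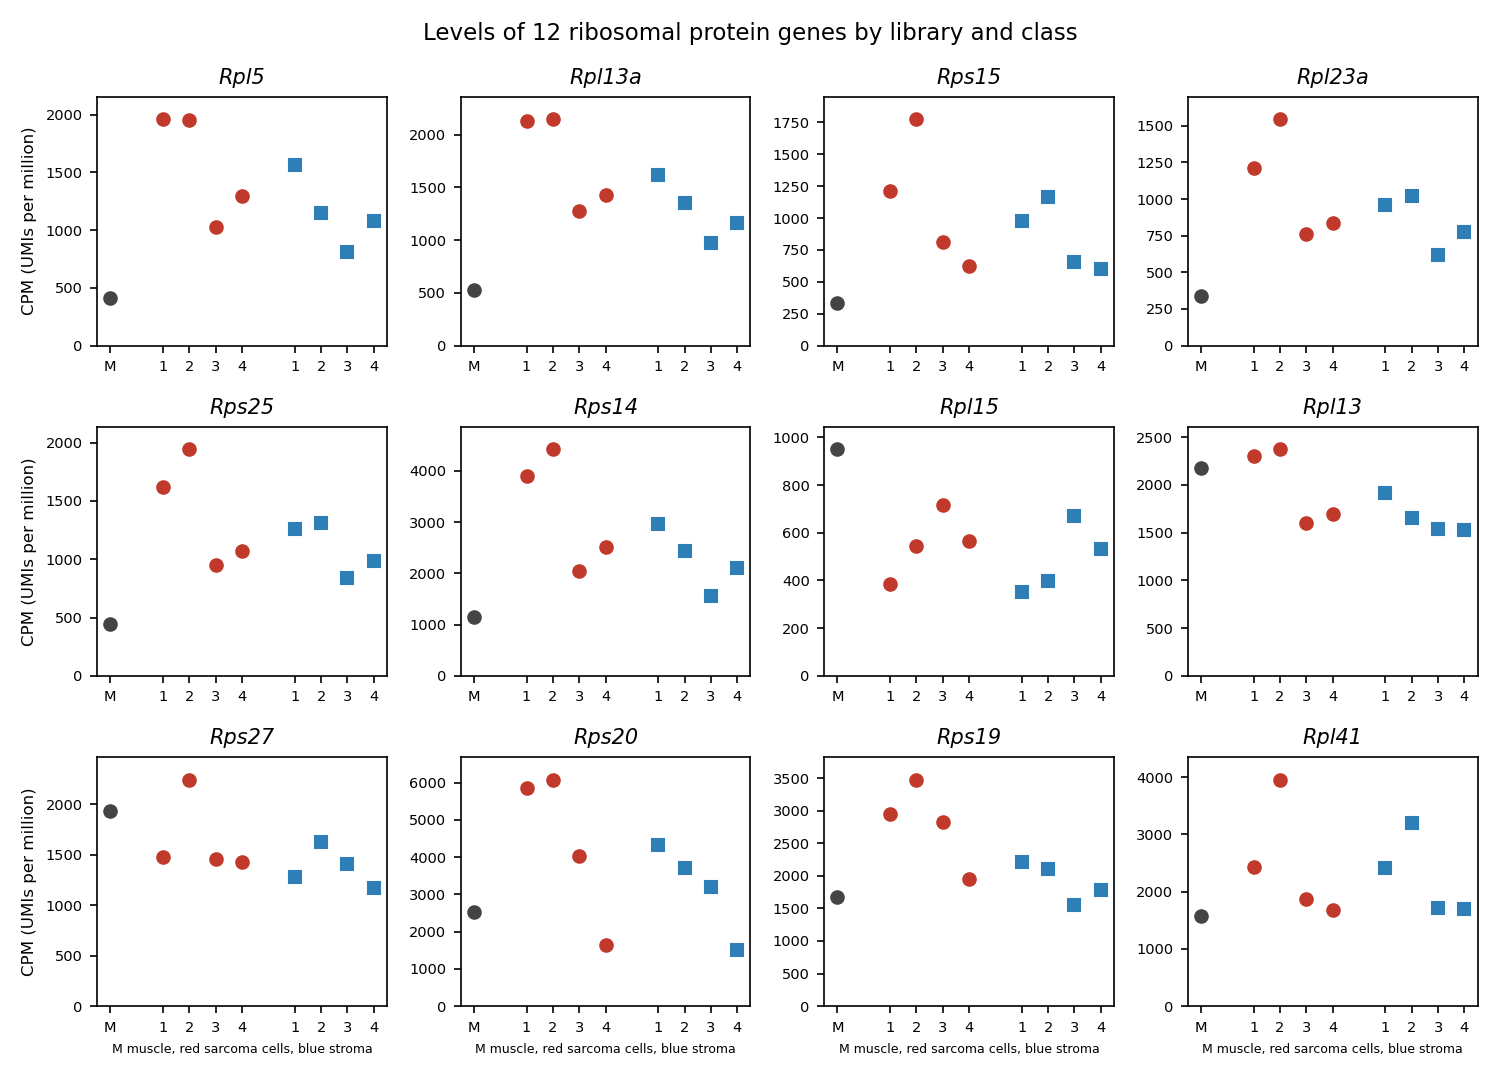
CPM of 12 RP genes in muscle (M, grey), in sarcoma cells of sarcomas 1 to 4 (red circles) and in their stroma (blue squares), each axis from 0. Rpl5 and Rpl13a lie above muscle in all 8 sarcoma and stroma values, and Rpl15 lies below muscle in all 8.

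Within each sarcoma library, RP genes were higher in sarcoma cells than in stroma almost throughout. The level was higher in all 4 libraries for 66 of 77 members (85.7%), against 19.1% of the 15238 genes tested, and it was lower in all 4 for 0 members, against 14.3%. Leaving out sarcoma 4, 68 members were higher in the other 3 libraries, against 35.2% of genes, and 0 were lower, against 22.6%. By library, sarcoma cells were higher for 77, 77, 68 and 75 members, with median log2 ratios of 0.28, 0.60, 0.20 and 0.15 in sarcomas 1 to 4. The differences were small, with fitted log2 values of 0.11 to 0.55 and a median of 0.32 beside 0.09 over all genes. With the library as a block, edgeR called 3 genes (0.0197%) and 0 members, the smallest adjusted p of a member being 0.154. Without sarcoma 4 it called 700 genes and again 0 members, and without sarcoma 1 or sarcoma 2 it called 0 genes. At an unadjusted p under 0.05 stood 24 members, all higher, against 13.5% of genes. DESeq2 called 2543 genes (16.7%), among them 10 members, all higher (850 of 15238 genes, 5.58%): Rpl4, Rpl5, Rpl11, Rpl13a, Rpl22, Rpl26, Rps14, Rps19, Rps26 and Rps28.

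Rps19, a small-subunit protein mutated in human Diamond-Blackfan anaemia, differed most from stroma. It had 2954, 3477, 2826 and 1957 CPM in sarcoma cells 1 to 4 and 2216, 2101, 1556 and 1779 in their stroma. Sarcoma cells were higher in 4 of 4 libraries, with a log2 difference of 0.55 ± 0.16 (edgeR adjusted p = 0.155). On the log2 scale the gap was widest in sarcoma 3 (0.86) and narrowest in sarcoma 4 (0.14). Next came Rpl17 (0.52), Rpl3 (0.50), which helps form the peptidyl transferase centre, Rpl4 (0.50), whose loop lines the peptide tunnel, Rps14 (0.49), and Rps6 (0.48), the substrate of the S6 kinases. Rps6 had 1737, 1811, 859 and 682 in sarcoma cells and 1334, 944, 641 and 621 in stroma.

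At the other end, Rps29 had 3948, 4118, 2954 and 2592 in sarcoma cells and 3634, 3699, 2962 and 2406 in stroma, a log2 difference of 0.11 ± 0.14. The 2 classes were nearly level in sarcoma 3. Rpl41, the shortest ribosomal protein, had 2428, 3956, 1862 and 1673 in sarcoma cells and 2410, 3192, 1715 and 1689 in stroma, nearly level in sarcomas 1 and 4 and higher in sarcoma cells of sarcoma 2. Rps2, Rplp1 of the acidic stalk, Rpl39 at the tunnel exit and Rps24 had log2 differences of 0.15, 0.17, 0.18 and 0.18. Among these, Rpl39 alone was higher in sarcoma cells in all 4 libraries.

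**Figure D5:**
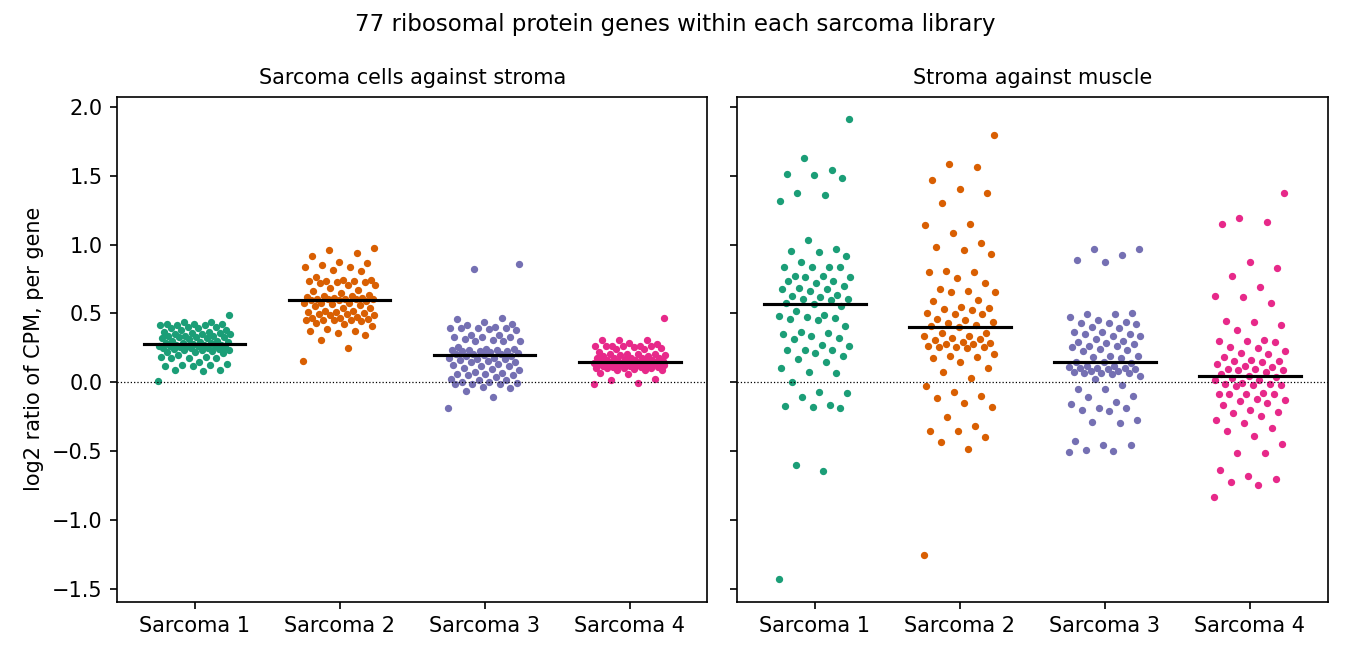
log2 ratios of CPM for the 77 genes (points) within each sarcoma library, sarcoma cells against stroma on the left and stroma against muscle on the right; black lines are medians over genes. On the left medians lie between 0.15 and 0.60 and nearly all points are above 0, whereas on the right the genes spread widely around medians of 0.05 to 0.57.

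Stroma set against muscle gave a wider spread of genes. Of the 77 members, 40 were higher in the stroma of all 4 sarcomas (51.9%), against 18.6% of the 13732 genes tested, and 7 were lower in all 4 against 31.3%. Without sarcoma 4 the counts were 54 higher, against 26.3%, and 7 lower, against 38.9%. The 7 that were lower in all 4 were Rpl9, Rpl13, Rpl15, Rpl27, Rpl35a, Rps27 and Rps28. No gene passed edgeR's test (0% called), with 4 members, all higher (3.55% of genes), and 1224 genes in either direction (8.91%) at an unadjusted p under 0.05, and without sarcoma 4 it called 32 genes and 0 members. DESeq2 called 621 genes (4.56%), 4 of them members (Rpl5, Rpl13a, Rps25 and Rpl23a), all higher, as were 3% of genes. The members' fitted log2 differences ran from -0.88 to 1.56 with a median of 0.42, beside 0.05 over all genes.

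This comparison uses the same muscle library as that of the sarcoma cells. Rpl5 had 1561, 1150, 813 and 1080 CPM in stroma 1 to 4, a log2 difference to muscle of 1.56 ± 0.52 (edgeR adjusted p = 0.519). Rps15, Rpl23a, Rps25 and Rpl13a followed with 1.43, 1.41, 1.40 and 1.37. Rpl15 was again lowest, with 353, 398, 672 and 533 in stroma and a log2 difference of -0.88 ± 0.42 (edgeR adjusted p = 0.624). Rps27 (-0.41), Rpl13 (-0.31), Rpl35a (-0.19), Rpl9 (-0.18) and Rpl11 (-0.14), the partner of Rpl5 on 5S ribosomal RNA, made up the rest of that end.

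Among the sarcomas, sarcoma 2 had the highest level for 66 members, sarcoma 1 for 10 and sarcoma 3 for 1, and the lowest was sarcoma 4 for 47, sarcoma 3 for 28 and sarcoma 1 for 2. Once each gene was divided by the RP total, members differed in how steady a part of it they kept. Rps26, a small-subunit protein at the exit of the messenger RNA channel, was steadiest at 1.04%, 1.00%, 1.01% and 1.03% of RP UMIs in sarcomas 1 to 4, although 51.1% of its 3′ words also occur in another feature. Rps15a and Rpl19 followed, with log2 ranges over sarcomas of 0.13 each. The widest range was that of Rpl15 (1.34). Rps20, a small-subunit protein of the head domain, took 2.97%, 2.61%, 2.78% and 1.22%, so that sarcoma 4 alone was low, and its stroma was low too at 1.28%. Rpl35 took 0.433%, 0.206%, 0.288% and 0.407%, with 78.1% of its 3′ words shared. Rpl31 ran from 0.305% to 0.633%, and Rpl27 from 0.310% to 0.623%.

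A 3′ kit counts molecules whatever their length, so levels were also set between genes. Among the highest means over the 5 libraries were those of Rpl37a, Rps20, Rpl39, Rpl23 and Rplp1. Rpl37a had 2999 CPM in muscle and 4228, 6960, 3429 and 3018 in sarcoma cells 1 to 4. Sarcoma 2 stood far above the others and sarcoma 4 at the muscle level. Rpl23 had 2617 in muscle and 4756, 5544, 3009 and 3009 in the sarcomas. In total 21 members share some 3′ words with another counted feature and 8 share over 50% (Rpl10, Rpl23a, Rpl27, Rpl29, Rpl35, Rps12, Rps26 and Rps27). The median log2 difference of sarcoma cells to muscle was 0.69 in those 21 and 0.89 in the other 56.

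Dividing sarcoma cells, with 2 or more UMIs of 6 mitotic genes, were set against cells with none. Their median RP shares were 18.9% and 18.9% in sarcoma 1, 23.5% and 22.7% in sarcoma 2, 14.8% and 12.4% in sarcoma 3, and 13.4% and 12.3% in sarcoma 4. The mean difference of 1.07 ± 0.98 points (SD, n = 4) was about the size of its spread, dividing cells were higher in 3 of 4, and without sarcoma 3 the difference was 0.646 points. Of the 77 genes, 21, 52, 74 and 72 were higher in dividing cells of sarcomas 1 to 4. The classes differed in depth, with 29822 against 20020 UMIs per cell in sarcoma 1 and 35786 against 17318 in sarcoma 4. Within the band of 5000 to 20000 UMIs the difference was 1.75 ± 3.47 points (SD, n = 4), again higher in 3 of 4. The classes also differed in cell type markers, and the part of this in the RP difference was not tested. In non-dividing cells of sarcomas 1 to 4, 6 markers of mural cells summed to 255, 195, 433 and 48.6 CPM. In dividing cells they summed to 48.9, 22.7, 111 and 6.74. Smarcb1 was also higher in non-dividing cells of all 4, as with 10.5 against 2.57 in sarcoma 3.

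Ribosomal proteins whose names fall outside the symbol rule and paralogues of RP genes were set beside the members. Gnb2l1, the older symbol of the small-subunit scaffold Rack1, had 617 CPM in muscle and 2211, 1961, 1239 and 1271 in the sarcomas, a log2 difference of 1.66 ± 0.69 (edgeR adjusted p = 0.470). Fau, which encodes a small-subunit protein fused to a ubiquitin-like peptide, had 1017 in muscle and 1422, 1892, 940 and 1086 in the sarcomas. Of the paralogues, Rps27l had 332 in muscle and 708, 699, 666 and 518 in the sarcomas, and Rpl22l1 had 577 and 1043, 1224, 653 and 1341. Rpl36al and Rpl7l1 were also higher in all 4, with log2 differences of 0.77 and 0.65. Rps27rt, a near copy of Rps27, was higher in 1 of 4, with 0.07. Rpl39l, a paralogue known from the testis, was seen mainly in sarcoma 2, at 225 CPM, against 9.23 in muscle and 0.342, 2.49 and 0 in sarcomas 1, 3 and 4.

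Other genes of translation and ribosome building were compared by list, beside the 21.4% of all genes that were higher than muscle in all 4 sarcomas and the 30.4% that were lower. Of 22 translation factors and other genes with known TOP tracts, 17 were higher than muscle in all 4 sarcomas and 1, Eif4a2, was lower in all 4, with a median log2 difference of 0.93. Among them Tpt1, an abundant growth-associated protein, had 3595 CPM in muscle and 13415, 10909, 5111 and 4812 in the sarcomas, highest in the 2 sarcomas with the highest RP shares. Of 34 genes of ribosomal RNA transcription and assembly, 26 were higher in all 4 and 0 lower, with a median of 0.97. Npm1, a nucleolar chaperone of the first list, had 421 in muscle and 1643, 1412, 987 and 1024, and Fbl, the methyltransferase of ribosomal RNA, 64.1 and 181, 159, 123 and 129.

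The 77 mitochondrial ribosomal protein genes, which serve the organelle's own ribosomes, were higher in all 4 for 48 and lower for 9, with a median of 0.54. Of 15 translation control genes 4 were higher in all 4 (26.7%, near the share of all genes) and 2 lower, and 3 of 11 snoRNA host genes could be tested, none of them on 1 side in all 4. No gene of these lists passed edgeR's test at an adjusted p of 0.05. Against stroma the lists stood higher in all 4 libraries for 16 of 22, 17 of 34, 20 of 76, 6 of 15 and 1 of 3 genes, against 19.1% of all genes, with medians of 0.34, 0.36, 0.11, 0.24 and 0.45. Lower in all 4 were 7 mitochondrial genes and 1 translation control gene, against 14.3% of all genes, and none of the other lists. For stroma against muscle the counts were 11 of 22, 20 of 34, 34 of 76, 3 of 15 and 1 of 3, against 18.6% of all genes, with medians of 0.46, 0.49, 0.40, 0.23 and 0.02. Lower in all 4 were 1, 1, 6, 3 and 1 genes of the lists, against 31.3% of all genes.

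The MYC genes, which drive ribosome production in many tumours, differed between sarcomas, and a link to the RP share was not tested. Myc had 85.2 CPM in muscle and 160, 68.6, 47.1 and 1.26 in sarcoma cells 1 to 4, so that only sarcoma 1 was above muscle. Its order over the sarcomas was that of the median RP share over all kept sarcoma cells, except that sarcomas 1 and 2 changed places. In that share sarcomas 3 and 4 lay close together, at 13.1% and 12.9%. Within the common band of depth the order of sarcomas 3 and 4 was reversed, at 12.2% and 12.8%. Mycn was at 78.0 in sarcoma 4 and at 0.12 or less in the other sarcomas, against 2.72 in muscle. Mycl, at 0.190 in muscle, had 0.219, 0.0822, 0.547 and 8.28 in sarcoma cells 1 to 4, again highest in sarcoma 4. Mdm2, the ligase bound by Rpl5 and Rpl11, had 30.2 in muscle and 218, 149, 69.7 and 83.0 in the sarcomas, a log2 difference of 2.34 ± 0.95 (edgeR adjusted p = 0.460).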

How the data were processed

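In all, 5 10x Genomics 3′ libraries of sorted cells were used, 1 of muscle and 4 of sarcomas. The deposited values are raw UMI counts per gene and barcode, which the authors obtained using Cell Ranger 6.0.1 (per the file headers) on mm10 (per the submitters' processing notes), with an annotation release not given in the sources used here. No barcode held under 500 UMIs. CPM are a gene's summed counts over the class total, scaled to 1e6, and these were computed here. Counts were summed per library and class and tested with edgeR 4.0.16 (quasi-likelihood, TMM, filterByExpr, Benjamini-Hochberg at 0.05) in R 4.3.3, with the library as a block for sarcoma cells against stroma, since both classes come from the same library. DESeq2 1.42.0 was an alternative, as were other scalings, filters, classes, thinning to 2000 UMIs and leaving out each sarcoma. Doublets were not removed; leaving out the deepest 5% of cells was an alternative. Python 3.11.15 with numpy 2.4.6, scipy 1.17.1 and pandas 2.3.3 computed shares, and matplotlib 3.10.9 drew figures. The testing steps were tested on simulated data, in which edgeR's test of 1 library against 4 did not call the changes put in at the spread measured here.

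The members, lists and tests were chosen with earlier results of these data known. Named members are the 6 highest in level, the 6 at each end of each comparison, and the 5 most and 3 least variable between sarcomas after division by the RP total, with RP genes and paralogues outside the rule. Some genes that this rule takes are not reported here. Genes named beyond this were chosen after their values were seen. The stroma with Smarcb1 UMIs and the counts without sarcoma 4 were added after the data were seen. Since separate animals are not stated, p-values measure only how these samples vary, and that variation may be technical. Gene positions came from GENCODE M21 and start sites from RefSeq.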

Additional observations from a re-analysis of the deposited data

Results flagged for a closer look

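Among 72 sets of 4 sarcoma or stroma values looked at for the named members, 1 held a value far from the other 3, and chance flags about 1 set in 20. It was the level of Rps27 in sarcoma cells, where sarcoma 2 (2247 CPM) lay apart from sarcomas 1, 3 and 4 (1480, 1464 and 1426): the gap to the nearest made up 0.934 of the whole range. Rps27 shares 70.1% of its 3′ words with another counted feature.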

How the results depend on the processing

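The share differences kept their direction under each alternative run. Leaving out each sarcoma gave 4.14 to 7.58 points for sarcoma cells against muscle, 1.76 to 4.48 against stroma, 2.01 to 3.37 for stroma against muscle and 0.646 to 1.43 for dividing cells. Other settings moved the first 3 by less than 1.5 times, and gave 0.772 to 1.75 for dividing cells, the 1.75 within the band of 5000 to 20000 UMIs. With stroma limited to cells with a Smarcb1 UMI, chosen after seeing the data, sarcoma 4 dropped out and the differences were 4.15 and 3.43 points. Counts of genes called depended on the tool and settings, and the cause was not tested. DESeq2 called 1591 genes for sarcoma cells against muscle, 2543 against stroma and 621 for stroma against muscle. For sarcoma cells against stroma edgeR called 12 with library size alone, 17 with RP genes left out of the scaling, 19 without a filter, 460 after thinning, 25 with stricter sarcoma cells, 1572 with Smarcb1-positive stroma and 0 to 700 when each sarcoma was left out (700 without sarcoma 4). Without the replicate block, which pairs the classes of a library, it called 0. For stroma against muscle it called 1 with muscle cells that carry stroma markers, 419 with Smarcb1-positive stroma and 0 to 32 when each sarcoma was left out (32 without sarcoma 4). No member was called by edgeR under any of these. Over all 77 members the fitted difference changed direction in at least 1 setting for 4 members in sarcoma cells against muscle, 10 in stroma against muscle and 0 in sarcoma cells against stroma, with at most 2 and 4 in any 1 setting. As reported, these members lay within 0.31 and 0.19 of 0 on the log2 scale. Among the members at either end of a comparison, direction changed for Rps27 against muscle, at 0.0077 without a filter, 0.032 after thinning, and -0.25 to 0.095 when each sarcoma was left out; for Rpl13, at -0.13 with library size alone and -0.043 to 0.23 when each was left out; for Rpl9, at -0.021 with library size alone; and for Rpl35a in stroma, at 0.066 against muscle cells with stroma markers. No paired analysis was possible between muscle and sarcoma, because their genotypes differ and the replicate number only counts libraries within a group. With 1 muscle library, its own spread is unknown.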
